A study of Homo sapiens with 8 samples.

Results

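The sgRNAs described here are targeting guides that the count table of a genome-wide CRISPRi screen lists under 2 or more neighbouring genes at once. They were selected on their counts, as targeting sgRNAs with a mean count of at least 20 whose strand and position occur under at least 2 gene symbols, with identical counts in all 8 columns. The rule found 1364 sgRNAs, which fill 2834 of the 102987 targeting rows at that count. Taking each strand and position with the same counts once, the whole table holds 101421 targeting sgRNAs at that count. Of these, 100057 were not members. Counts of 1051 were identical to those of an sgRNA at another position, so some may be 1 guide listed at several positions. The members fell under 741 symbols in 355 gene groups, of which 325 were pairs, 29 held 3 symbols and 1 held 4. Symbols were joined into 1 group through any shared sgRNA, so a guide of a larger group need not be listed under all its symbols. Of 2218 positions listed under 2 or more symbols, 802 were at 0 in all libraries and 4 had a mean above 0 and under 20; 17 were counted differently under their symbols, and 31 were counted under 1 symbol and at 0 under another, so none of these was a member. The lowest mean count of a member was 25.25 and the highest of a position left out for its mean was 12.9. In all, 1269 sgRNAs were listed under 2 symbols, 88 under 3 and 7 under 4. The members were chosen by the identity of their counts between rows and by their mean count, so the change from day 0 to day 9, described below, was not used by the rule.

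The screen was run in K562, a human leukaemia line, carrying dCas9-KRAB and stably expressing uL16, the large-subunit ribosomal protein encoded by RPL10, in wild-type or mutant form. Cells of both lines were transduced with the sgRNA library, selected with puromycin for 3 days and kept for 10 doublings, and genomic DNA was sequenced across the sgRNA cassette. There were 4 groups of 2 replicates: wild-type day 0, wild-type day 9, mutant day 0 and mutant day 9. The mutation, the state of the endogenous gene and whether either line was a clone are not stated in the labels. The labels do not say that replicates were separate cultures, so p-values measure only the spread between these samples, which may be technical. Neither RPL10 nor ZNF574, the gene in the study's title, was among the 741 symbols.

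Many human genes lie head to head, on opposite strands, with their transcription start sites so close that 1 stretch of DNA serves as promoter for both; such promoters are called bidirectional. In CRISPRi, dCas9 is a Cas9 that binds DNA without cutting it, and the fused KRAB domain recruits heterochromatin factors that silence transcription around the bound site. A guide in a shared promoter can therefore reach both genes, and a guide lost during growth does not by itself name the gene. The question addressed is how far the growth effect of the shared sgRNAs followed the sgRNAs that target each neighbour alone.

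Starts and strands came from RefSeq promoters (GRCh38.p14), where 603 of the 741 symbols were found. A pair was called bidirectional when its genes lay on opposite strands with starts at most 1000 bases apart, a limit chosen after the data were seen. Where a gene had several starts, the closest starts of the pair were used, which need not be those the sgRNAs target. This gave 135 bidirectional pairs with 268 shared sgRNAs. Of these, 102 had a gap between the starts, with a median of 149 bases and a range of 14 to 840, and in 33 the transcripts overlapped at their 5′ ends, by a median of 384 bases. A further 17 pairs lay on opposite strands farther apart, 67 pairs on the same strand, and 43 pairs joined a gene to a read-through name such as NEDD8-MDP1. The last 63 pairs were not placed, and the 30 groups of 3 or 4 symbols were kept apart.

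The 6 windows printed here are the bidirectional promoters on which the main results turn: 4 where shared sgRNAs fell with the sgRNAs of 1 or both genes, 1 where only the sgRNAs of 1 gene fell, and 1 where the file holds only shared sgRNAs. Each runs 5′ to 3′ on the strand of the first-named gene, in GRCh38.p14. Capitals mark the bases between the 2 start sites, lower case to their left is transcribed sequence of the second gene, and lower case to their right is that of the first gene. The coordinates in the sgRNA names did not match the GRCh38.p14 starts. No sgRNA was therefore placed on these windows, and whether the shared guides lie inside them was not tested.
ABCE1 and ANAPC10 (chr4:145098061-145098360, plus strand): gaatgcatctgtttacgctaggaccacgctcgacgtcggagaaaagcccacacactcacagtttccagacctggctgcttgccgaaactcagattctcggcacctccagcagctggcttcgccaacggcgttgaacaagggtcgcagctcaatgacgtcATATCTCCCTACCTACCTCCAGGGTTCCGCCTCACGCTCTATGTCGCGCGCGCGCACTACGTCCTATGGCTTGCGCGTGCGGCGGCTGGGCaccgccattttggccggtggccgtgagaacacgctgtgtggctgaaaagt
RIBC1 and SMC1A (chrX:53422623-53422922, plus strand): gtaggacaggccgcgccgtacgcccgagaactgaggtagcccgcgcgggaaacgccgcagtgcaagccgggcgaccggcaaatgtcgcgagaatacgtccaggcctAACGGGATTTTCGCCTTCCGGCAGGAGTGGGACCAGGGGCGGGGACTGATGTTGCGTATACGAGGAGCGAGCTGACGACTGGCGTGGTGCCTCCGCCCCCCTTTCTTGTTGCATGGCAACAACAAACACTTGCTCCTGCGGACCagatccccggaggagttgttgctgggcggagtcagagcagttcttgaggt
ANAPC13 and CEP63 (chr3:134485974-134486273, minus strand): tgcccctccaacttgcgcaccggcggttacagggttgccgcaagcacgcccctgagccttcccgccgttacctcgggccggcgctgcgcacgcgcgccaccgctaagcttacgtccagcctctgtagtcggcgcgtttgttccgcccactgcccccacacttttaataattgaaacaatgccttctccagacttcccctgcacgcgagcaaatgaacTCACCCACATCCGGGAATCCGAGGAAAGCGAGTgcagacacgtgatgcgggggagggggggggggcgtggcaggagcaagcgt
RAD9B and VPS29 (chr12:110502081-110502380, plus strand): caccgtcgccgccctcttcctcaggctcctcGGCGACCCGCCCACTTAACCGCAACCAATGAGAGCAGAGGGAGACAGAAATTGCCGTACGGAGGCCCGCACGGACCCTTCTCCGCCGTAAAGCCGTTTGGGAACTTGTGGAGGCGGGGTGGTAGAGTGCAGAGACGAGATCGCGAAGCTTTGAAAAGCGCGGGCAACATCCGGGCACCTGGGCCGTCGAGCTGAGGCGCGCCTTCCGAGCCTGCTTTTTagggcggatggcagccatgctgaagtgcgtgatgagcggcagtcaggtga
CHEK2 and HSCB (chr22:28741771-28742070, minus strand): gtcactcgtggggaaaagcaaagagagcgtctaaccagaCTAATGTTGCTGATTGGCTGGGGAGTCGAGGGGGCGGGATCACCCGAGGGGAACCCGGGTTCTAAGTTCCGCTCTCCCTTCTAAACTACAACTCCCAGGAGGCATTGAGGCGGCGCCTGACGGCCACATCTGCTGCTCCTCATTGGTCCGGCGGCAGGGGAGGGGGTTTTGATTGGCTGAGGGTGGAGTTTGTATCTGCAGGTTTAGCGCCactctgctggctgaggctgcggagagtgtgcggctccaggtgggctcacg
NOP10 and NUTM1 (chr15:34343087-34343386, minus strand): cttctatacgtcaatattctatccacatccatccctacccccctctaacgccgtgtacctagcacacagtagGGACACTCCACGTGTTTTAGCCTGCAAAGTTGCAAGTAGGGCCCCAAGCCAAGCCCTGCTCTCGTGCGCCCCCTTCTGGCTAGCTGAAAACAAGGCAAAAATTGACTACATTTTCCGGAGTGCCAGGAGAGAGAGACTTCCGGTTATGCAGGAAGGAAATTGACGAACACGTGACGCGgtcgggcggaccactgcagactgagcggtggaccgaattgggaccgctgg
The gap was shortest at ANAPC13 and CEP63, with 33 bases between the starts, and longest at RAD9B and VPS29, with 219. It held 91 bases at ABCE1 and ANAPC10, 144 at RIBC1 and SMC1A, 178 at NOP10 and NUTM1, and 211 at CHEK2 and HSCB.

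The 270 windows of the 135 bidirectional pairs, 1 for each gene, differed in letters from all 27305 promoters of the RefSeq table. Their median GC content was 63.7%, against 58.3% over all promoters, and their median number of CpG dinucleotides was 26 against 14. Motifs were counted on both strands, a window counting once however many matches it held and matches of different motifs being free to overlap. The ETS-type core CCGGAA was present in 35.2% of the bidirectional windows and 17.6% of all promoters. The NRF1-type motif, GCGC and GCGC with any 2 bases between them, was present in 13.3% and 8.78%, and the GC box GGGCGG in 69.6% and 44.6%. TATAAA was found in 5.19% and 11.95%, and CCAAT in 35.9% and 35.7%. The 2 windows of a pair cover much the same DNA, so these shares are descriptions without a test. In the 34 windows of the 17 pairs whose shared sgRNAs fell in wild-type cells, CCGGAA was present in 38.2%, the NRF1-type motif in 32.4%, GGGCGG in 64.7%, TATAAA in 5.88% and CCAAT in 35.3%. Of the printed windows, those of RIBC1 and of NOP10 hold CCGGAA on either strand, and those of ABCE1 and ANAPC13 hold the NRF1-type motif. A match describes the letters only.

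The 8 libraries held between 39233340 and 143585751 counts, the fewest in mutant day 9 replicate 1 and the most in mutant day 0 replicate 2. Shared sgRNAs took 2.17 to 2.22% of the counts of a library, and their median count per sgRNA was 520 in the shallowest and 2006 in the deepest. The 1894 non-targeting sgRNAs, the background of the screen, had a median log2 change of 0.05 in wild-type and 0.04 in mutant cells; 11 were lower and 6 higher in wild-type, and 10 and 3 in mutant cells, by the test used below. Counts of PCR products without molecular identifiers are not independent molecules.

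Most shared sgRNAs did not pass the test for a change over 9 days, and nearly all that passed were depleted. With edgeR's quasi-likelihood test and Benjamini-Hochberg adjustment over all 103315 sgRNAs, at an adjusted p of 0.05, 122 of the 1364 shared sgRNAs were lower at day 9 in wild-type cells (8.94%) and 1 was higher. Among all sgRNAs tested 5.08% were lower and 0.262% higher. In mutant cells 136 shared sgRNAs were lower (9.97%) and 4 higher, where 4.95% and 0.144% of all sgRNAs were. The median log2 change of the shared sgRNAs was 0.00 in wild-type and 0.02 in mutant cells, against 0.01 in both over all sgRNAs. A fall by more than 1 on the log2 scale that also passed the test was seen for 104 shared sgRNAs in wild-type cells (7.62%) and 111 in mutant cells (8.14%), where 4.55% and 4.48% of all sgRNAs had one.

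To read the shared sgRNAs by gene group, the counts of the shared sgRNAs of each group were summed into a shared set. The sgRNAs listed under 1 gene of the group only, at its primary promoter, were summed into an own set for that gene where there were at least 2. Shared sets held shared sgRNAs of any promoter label. For OAZ3, DNASE1L1, ENO3 and PPP1R13L, among others, no shared sgRNA was listed at the primary promoter. There the own and shared sets carry different promoter labels for that gene. All other genes were tested beside them as sums of 3 or more sgRNAs, 18938 sums in all, of which 8.61% were lower and 0.861% higher in wild-type cells, and 8.5% and 0.713% in mutant cells. The shared set was lower in 45 of 355 groups in wild-type cells (12.7%) and in 46 in mutant cells (13.0%), 40 of them in both. It was higher in 2 groups in wild-type and in 4 in mutant cells. The median change of the shared sets was -0.01 in wild-type and 0.01 in mutant cells, against 0.01 in both over all sums.

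Across the classes of gene order the share of groups with a lower shared set ran from 10.4% to 16.7% in wild-type cells. It was 17 of the 135 bidirectional pairs (12.6%), 2 of 17 pairs on opposite strands farther apart, 7 of 67 on the same strand, 6 of 43 with a read-through name, 8 of 63 not placed, and 5 of 30 with 3 or more symbols. In mutant cells the counts were 18, 2, 6, 4, 10 and 6 in the same order. The number of shared sgRNAs set the precision: the median standard error of the wild-type change was 0.23 for the 79 groups with 1 shared sgRNA, 0.13 for the 102 with 2 to 4, and 0.08 for the 174 with 5 or more. The shared set was lower in 7, 17 and 21 of these groups. Bidirectional pairs had a median of 2 shared sgRNAs, while pairs on the same strand and read-through pairs had a median of 5.

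Within groups of 3 or more shared sgRNAs, the guides of a group differed more among themselves where the set fell. Over all 221 such groups the median SD of the wild-type log2 changes among the sgRNAs of a group was 0.24. In the 31 groups whose shared set was lower it was 0.91, and every sgRNA of the group had a negative change in 18 of the 31. In mutant cells the SD was 0.84 in 30 such groups, and every sgRNA was negative in 14.

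For 174 pairs both genes had an own set, so that the shared sgRNAs could be read beside each neighbour, and 126 of these pairs were bidirectional. In wild-type cells both own sets were lower in 6 pairs, 1 own set in 33 and neither in 135. In mutant cells the counts were 7, 32 and 135. The same 5 pairs had both own sets lower in both lines, and the same 26 had 1. The count of 33 was 25 to 36 when each library was left out in turn. The mutant count of 32 fell to 18 without mutant day 0 replicate 1 and to 20 without mutant day 0 replicate 2, and the 6 wild-type pairs with both own sets lower fell to 3 without wild-type day 0 replicate 1.

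Where 1 own set was lower in wild-type cells, the shared set was lower in 9 of 33 pairs. In those 33 pairs the median change was -0.86 for the lower own set, -0.05 for the other and -0.09 for the shared set. The shared value lay between both own values in 18 pairs, below both in 5 and above both in 10. Where both own sets were lower, the shared set was lower in 3 of 6 pairs, and where neither was, in 8 of 135. In mutant cells the shared set was lower in 4 of 7, 11 of 32 and 6 of 135.

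The shared sgRNAs that fell with 1 neighbour are best seen at ABCE1 and ANAPC10, whose promoter window is printed first. ABCE1 encodes the ATPase that splits ribosomes for recycling, and ANAPC10 a subunit of the anaphase-promoting complex, the ubiquitin ligase of mitosis. Their 1 shared sgRNA stood at 6.28 and 6.997 CPM (counts scaled to a common library size) in wild-type day 0 and 1.41 and 0.741 in wild-type day 9, and at 6.44 and 9.76 in mutant day 0 and 0.967 and 0.315 in mutant day 9. Every day 9 library lay below every day 0 library. Its log2 change was -2.63 (SE 0.51, edgeR adjusted p = 0.000224) in wild-type and -3.88 (SE 0.54, adjusted p = 1.17e-06) in mutant cells. The 4 sgRNAs of ABCE1 alone fell by 2.43 (SE 0.22) in wild-type cells, from 27.4 and 25.6 to 4.05 and 5.77 CPM. The 4 sgRNAs of ANAPC10 alone stood at 28.0 and 27.9 CPM in wild-type day 0 and 23.7 and 24.4 in wild-type day 9, a change of -0.22 (SE 0.14, edgeR adjusted p = 0.442). In mutant cells ANAPC10's own set was lower by the test, with a change of -0.45 (SE 0.14, edgeR adjusted p = 0.0364), beside -3.23 for ABCE1.

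RIBC1 and SMC1A are the head-to-head pair of the second window. SMC1A encodes a core subunit of cohesin, the ring that holds sister chromatids together, and RIBC1 a protein of ciliary microtubules. The 2 shared sgRNAs summed to 20.0 and 19.4 CPM in wild-type day 0 and 3.30 and 2.92 in day 9, and to 21.1 and 21.1 in mutant day 0 and 3.64 and 1.86 in day 9. Day 0 and day 9 did not overlap in either line. The shared set changed by -2.67 (SE 0.27, edgeR adjusted p = 1.75e-09) in wild-type and -3.005 (SE 0.27, adjusted p = 1.33e-10) in mutant cells. SMC1A's own set fell by 3.47 and 3.24 in wild-type and mutant cells. RIBC1's own set changed by -0.61 (SE 0.19, adjusted p = 0.0293) in wild-type cells and by -0.51 (SE 0.18, adjusted p = 0.0872), which did not pass, in mutant cells.

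RAD9B and VPS29 had 4 shared sgRNAs, and in wild-type cells these varied least among the sets that fell. VPS29 encodes a subunit of retromer, which returns receptors from endosomes, and RAD9B a paralogue of the DNA damage checkpoint clamp protein RAD9. The shared set stood at 32.5 and 30.3 CPM in wild-type day 0, 6.20 and 6.56 in wild-type day 9, 29.3 and 29.3 in mutant day 0, and 7.06 and 5.09 in mutant day 9. The day 9 values were clear of the day 0 values in both lines. The change was -2.30 (SE 0.19) in wild-type and -2.29 (SE 0.19) in mutant cells. The changes of the single sgRNAs ran from -2.36 to -2.22 in wild-type cells and, more widely, from -2.71 to -1.92 in mutant cells. VPS29's own 2 sgRNAs fell by 1.56 (SE 0.21) in wild-type and 2.27 (SE 0.22) in mutant cells. RAD9B's own 2 sgRNAs stood at 10.99 and 10.96 CPM in wild-type day 0 and 8.77 and 10.9 in day 9, with a change of -0.16 (SE 0.25, edgeR adjusted p = 0.806).

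ANAPC13 encodes another subunit of the anaphase-promoting complex, and CEP63, its head-to-head neighbour, a centrosomal protein. Their 2 shared sgRNAs summed to 22.4 and 21.8 CPM in wild-type day 0 and 4.50 and 6.98 in day 9, and to 19.7 and 22.3 in mutant day 0 and 7.17 and 6.18 in day 9. All day 9 libraries were below all day 0 libraries. The shared set changed by -1.94 (SE 0.23) in wild-type and -1.66 (SE 0.22) in mutant cells. ANAPC13's own set fell, with changes of -2.05 and -2.08. CEP63's own set changed by -0.52 (SE 0.19, edgeR adjusted p = 0.0842) in wild-type and by -1.13 (SE 0.19, adjusted p = 2.85e-05) in mutant cells. The difference between lines in CEP63's own set was -0.61 (SE 0.27) and did not pass the test, with an edgeR adjusted p of 0.885.

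At MRPL9 and OAZ3 the guides of 1 group differed among themselves. MRPL9 encodes a protein of the large mitochondrial ribosomal subunit and OAZ3 a testis form of ornithine decarboxylase antizyme. The 4 shared sgRNAs summed to 37.0 and 36.7 CPM in wild-type day 0, 21.2 and 23.3 in wild-type day 9, 43.8 and 37.7 in mutant day 0 and 24.7 and 23.5 in mutant day 9. The groups did not overlap, and the set changed by -0.73 (SE 0.13, edgeR adjusted p = 0.000114) in wild-type cells. MRPL9's own set fell by 1.87 and OAZ3's changed by 0.04 (SE 0.09). None of the shared sgRNAs was listed at OAZ3's primary promoter, to which its own set belongs. Of the 4 shared sgRNAs, 1 was called lower on its own, at -1.66 in wild-type cells, and the others ran from -0.82 to 0.33.

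Further pairs also had 1 own set and the shared set lower in wild-type cells. At FAU and MRPL49, which encode a cytosolic ribosomal protein made as a ubiquitin-like fusion and a mitochondrial ribosomal protein, the shared sgRNA fell by 0.86 (SE 0.16) in both lines. FAU's own set fell by 1.12 in wild-type cells, and MRPL49's changed by -0.33 (SE 0.13, edgeR adjusted p = 0.114). At DNASE1L1 and TAZ, the latter the gene of tafazzin, which remodels the mitochondrial lipid cardiolipin, the shared set fell by 0.48 (SE 0.13), TAZ's own set by 1.82, and DNASE1L1's changed by -0.30 (SE 0.25). At POLR3K and SNRNP25, a subunit of RNA polymerase III and a protein of the minor spliceosome, the shared sgRNA fell by 1.12 (SE 0.26), SNRNP25's own set by 0.39 (SE 0.12), and POLR3K's changed by -0.08 (SE 0.13). At C14orf178 and SNW1, the latter a splicing factor, the shared set fell by 2.57 (SE 0.77, edgeR adjusted p = 0.0254) in wild-type cells, from 240 and 242 reads to 44 and 13. Leaving out any 1 of 5 libraries took this wild-type call away. The wild-type call at TAZ was lost without wild-type day 0 replicate 1 or day 9 replicate 1, and that at SNRNP25 without wild-type day 0 replicate 2.

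Both neighbours were depleted by their own sgRNAs at ATF5 and NUP62. NUP62 encodes a protein of the nuclear pore's central channel and ATF5 a stress-responsive transcription factor. The 3 shared sgRNAs summed to 11.5 and 13.1 CPM in wild-type day 0, 1.67 and 3.91 in wild-type day 9, 12.3 and 14.1 in mutant day 0, and 2.22 and 1.71 in mutant day 9. Day 9 was below day 0 in each line without overlap. The shared set fell by 2.14 (SE 0.34) in wild-type and 2.78 (SE 0.35) in mutant cells. In wild-type cells NUP62's own set fell by 3.21 (SE 0.69) and that of ATF5, with 5 sgRNAs, changed by -1.18 (SE 0.17).

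COG8 and NIP7 formed the other pair with both own sets and the shared set lower in both lines. NIP7 is an assembly factor of the large ribosomal subunit and COG8 belongs to the Golgi tethering complex COG. Their shared set stood at 60.1 and 52.3 CPM in wild-type day 0, 24.5 and 28.7 in wild-type day 9, 58.8 and 56.5 in mutant day 0 and 30.3 and 28.4 in mutant day 9. The day 9 libraries were all lower. The change was -1.08 (SE 0.12) in wild-type and -0.98 (SE 0.12) in mutant cells. NIP7's own set fell by 3.28 (SE 0.36) in wild-type cells and COG8's by 0.84 (SE 0.14). So the shared guides lay nearer to the value of COG8.

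In 3 pairs both own sets fell in both lines while the shared set passed in neither. MRPL51, of the mitochondrial ribosome, fell by 1.45 in wild-type cells and NCAPD2, a condensin subunit, by 0.75, beside a change of -0.19 (SE 0.18) in their shared set. WDR12, a factor of large-subunit ribosome assembly, fell by 1.78 and CARF by 0.50, beside 0.20 (SE 0.48) in their single shared sgRNA. GLMN, a regulator of cullin ubiquitin ligases, fell by 1.57 and RPAP2, which acts on RNA polymerase II, by 0.94, beside 0.04 (SE 0.42). The shared sgRNAs of WDR12 and GLMN were counted at 3.20 to 5.53 CPM at day 0, so their standard errors were wide.

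Of the 26 pairs in which 1 own set was lower in both lines, the shared set was lower in both lines in 7, in 1 line in 1, and in neither line in 18. The 18 all had 1 or 2 shared sgRNAs, 10 of them 1 and 8 of them 2, and the called gene was the same in both lines. Their median wild-type change was -0.89 for the called own set, -0.03 for the other and -0.05 for the shared set.

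Of these 18 pairs, the own set fell most at HSCB, the neighbour of CHEK2. HSCB is a co-chaperone of mitochondrial iron-sulfur cluster assembly, and CHEK2 a kinase of the DNA damage checkpoint. HSCB's own 4 sgRNAs stood at 33.99 and 29.98 CPM in wild-type day 0, 6.81 and 7.16 in wild-type day 9, 29.5 and 31.0 in mutant day 0 and 8.91 and 6.68 in mutant day 9. Their shared sgRNA stood at 9.96 and 11.9 CPM in wild-type day 0, 9.31 and 8.92 in wild-type day 9, 8.61 and 10.2 in mutant day 0 and 7.26 and 9.88 in mutant day 9. HSCB's guides were far lower at day 9 in both lines. The shared guide was slightly lower at day 9 without overlap in wild-type cells, and overlapped between days in mutant cells. The changes in wild-type cells were -2.19 (SE 0.19) for HSCB's own set, -0.12 (SE 0.10) for CHEK2's and -0.26 (SE 0.26, edgeR adjusted p = 0.664) for the shared sgRNA.

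CINP, a partner of cyclin-dependent kinase complexes, lay beside TECPR2, an autophagy protein. CINP's own set went from 73.1 and 86.7 CPM to 30.9 and 27.8 in wild-type cells and from 85.8 and 82.1 to 30.1 and 23.3 in mutant cells, without overlap. The shared sgRNA stood at 11.3 and 11.01 CPM in wild-type day 0 and 11.7 and 9.57 in day 9, with a change of -0.07 (SE 0.23). CD3EAP, a subunit of RNA polymerase I, fell by 1.74 (SE 0.16) beside 0.20 (SE 0.15) in the guide it shared with PPP1R13L. COX15, which makes the haem of cytochrome oxidase, fell by 1.22 (SE 0.39, edgeR adjusted p = 0.04) beside 0.10 (SE 0.12) in the 2 guides shared with CUTC. The called genes of the other 14 pairs were BRIX1, C10orf111, CENPN, CIRH1A, GLB1, ISG20L2, KARS, NDUFA1, NOP16, POLR1C, RUVBL2, SPSB3, VPS16 and ZC3H11A. Of these, BRIX1, CIRH1A and NOP16 act in ribosome assembly, with wild-type changes of -1.01, -1.16 and -0.81. Not every pair showed a clear contrast beyond the threshold. In wild-type cells RUVBL2's own set changed by -0.62 (SE 0.18) and its shared guide by -0.48 (SE 0.35). The own set of ZC3H11A changed by -0.32 (SE 0.10), beside -0.30 (SE 0.13) for that of its neighbour ZBED6.

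Position was compared within the file, where each sgRNA's name holds a coordinate. In the 126 bidirectional pairs with both own sets, 112 of the 223 shared sgRNAs (50.2%) lay between the middles of the own sets. These middles were a median of 434 bases apart, with a range of 6.5 to 38491 over the 126 pairs. In 26 of these pairs 1 own set was lower in wild-type cells, and the shared set was lower in 7. The median distance from the shared sgRNAs to the middle of the called gene's own set was 123 bases in those 7 and 335 in the other 19. The distance to the other gene's own set was 319 and 251 bases. These distances are descriptions over few pairs, with no test.

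In 8 of the 135 pairs with neither own set lower in wild-type cells (5.93%) the shared set was lower, a share below the 8.61% of all sums. The strongest were single guides. The sgRNA shared by CCDC157 and SF3A1, the latter a protein of the U2 spliceosomal particle, went from 3.44 and 3.24 CPM to 0.141 and 0.112 in wild-type cells and from 2.38 and 3.02 to 0.142 and 0.0761 in mutant cells. The day 9 values rest on 5 to 7 reads, and the days did not overlap. The change was -4.70 (SE 1.11, edgeR adjusted p = 0.0028) in wild-type and -4.79 (SE 1.11, adjusted p = 0.00217) in mutant cells. SF3A1's own set changed by -0.63 (SE 0.25, adjusted p = 0.137) in wild-type cells and by -0.82 (SE 0.25, adjusted p = 0.0298), which passed, in mutant cells. Without wild-type day 0 replicate 1 the wild-type adjusted p of the shared sgRNA was 0.0521, and without mutant day 0 replicate 2 the mutant value was 0.0942.

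The sgRNA shared by DNAJC17, a J-domain co-chaperone gene, and ZFYVE19, a gene of an abscission checkpoint protein, stood at 12.8 and 14.5 CPM in wild-type day 0 and 1.04 and 0.629 in day 9, and at 11.6 and 11.9 in mutant day 0 and 0.541 and 1.37 in day 9. It was depleted in both lines without overlap, with changes of -4.04 (SE 0.40) in wild-type and -3.49 (SE 0.38) in mutant cells. The own sets changed by -0.12 (SE 0.12) for DNAJC17 and -0.07 (SE 0.16) for ZFYVE19 in wild-type cells, and neither passed in either line. The sgRNA of MZT2B, a microtubule-nucleation protein, and SMPD4, a sphingomyelinase, went from 12.7 and 12.4 to 2.31 and 2.09 CPM in wild-type and from 10.8 and 9.87 to 1.51 and 3.77 in mutant cells. Its change was -2.52 (SE 0.36) in wild-type and -1.89 (SE 0.35) in mutant cells, beside own sets at 0.22 for MZT2B and 0.27 for SMPD4 in wild-type cells.

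Other pairs of this kind were ENO3/PFN1, DDX43/OOEP, C12orf65/MPHOSPH9 and AP4S1/STRN3. PFN1, the actin-binding profilin, and ENO3, the muscle enolase, shared 2 sgRNAs that went from 22.6 and 23.6 CPM to 9.64 and 9.57 in wild-type cells and from 23.6 and 27.8 to 5.49 and 7.96 in mutant cells. Day 9 was lower throughout, with changes of -1.27 (SE 0.20) and -1.91 (SE 0.20). PFN1's own set changed by -0.13 (SE 0.09) in wild-type and -0.24 (SE 0.09) in mutant cells, neither past the test. The shared sgRNA of DDX43 and OOEP fell by 1.34 and 0.86 in the 2 lines.

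Where neither gene had an own sgRNA, the file holds no guide that separates them. This was so in 89 pairs, and the shared set was lower in 7 of them (7.87%) in wild-type and in 7 in mutant cells, a share near the 8.61% and 8.5% of all sums. NOP10, a core protein of the H/ACA particles that pseudouridylate ribosomal RNA and belong to telomerase, shared all its 5 sgRNAs with NUTM1, a testis gene. They summed to 115 and 107 CPM in wild-type day 0, 33.2 and 32.9 in wild-type day 9, 117 and 106 in mutant day 0, and 39.3 and 34.2 in mutant day 9. The libraries of day 9 lay far below those of day 0 in both lines. The change was -1.74 (SE 0.09, edgeR adjusted p = 1.06e-15) in wild-type and -1.60 (SE 0.09, adjusted p = 2.84e-15) in mutant cells. Of the 5 sgRNAs, 4 were called lower in wild-type cells, from -2.51 to -1.32, and the last was at -0.26. The other pairs lower in wild-type cells were PIGY/PYURF, DPY30/MEMO1, FBXO17/SARS2, GTF2H2C/GTF2H2D, HAUS3/POLN and RPS10/RPS10-NUDT3, with changes from -0.76 to -0.26.

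FBXO17 and SARS2, the mitochondrial seryl-tRNA synthetase gene, shared 6 sgRNAs, which summed to 76.1 and 73.3 CPM in wild-type day 0 and 51.8 and 48.4 in day 9, and to 84.3 and 80.8 in mutant day 0 and 56.3 and 59.2 in day 9. The set fell by 0.58 (SE 0.09) in wild-type and 0.51 (SE 0.09) in mutant cells. Its guides ran from -1.56 to 0.01 in wild-type cells, and 2 of the 6 were called. GTF2H2C and GTF2H2D are near-identical copies of a TFIIH subunit gene, so counts of their guides cannot be split between the copies, and the 6 shared sgRNAs fell by 0.45 (SE 0.07) and 0.47 (SE 0.07). In mutant cells ZNF700/ZNF763, 2 zinc finger genes, joined this group with -0.26 (SE 0.07, edgeR adjusted p = 0.0164), while RPS10/RPS10-NUDT3 did not pass.

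Pairs on the same strand and read-through names mostly had too few own sgRNAs to separate. MRPL12, of the mitochondrial ribosome, and SLC25A10, the mitochondrial dicarboxylate carrier, shared 4 sgRNAs, which went from 63.7 and 68.3 CPM to 16.7 and 23.6 in wild-type cells and from 63.0 and 65.8 to 18.8 and 20.7 in mutant cells. Day 9 was lower without overlap, with changes of -1.71 (SE 0.13) and -1.70 (SE 0.13). The 2 sgRNAs listed under SLC25A10 only fell by 2.04 (SE 0.27) in wild-type cells, and MRPL12 had 1 own sgRNA, too few for a set. The shared sets of NDUFB8/SEC31B, CPNE1/RBM12, MRPS6/SLC5A3, FBXO17/SARS2, ARL2/SNX15 and HAUS3/POLN were the other 6 of this class that fell in wild-type cells. NDUFB8 is a subunit of respiratory complex I, and its shared set fell by 1.03 (SE 0.10).

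PPAN is a factor of large-subunit ribosome assembly, and PPAN-P2RY11 the name of its read-through transcript with the next gene. Their 3 shared sgRNAs went from 48.2 and 47.9 CPM to 8.44 and 10.5 in wild-type cells and from 46.03 and 44.99 to 6.34 and 5.18 in mutant cells. Every guide was called lower in both lines, and the set fell, with changes of -2.34 (SE 0.16) and -2.999 (SE 0.16). The 2 guides listed under PPAN only changed by -0.35 (SE 0.22, edgeR adjusted p = 0.43) in wild-type cells, and the 2 listed under PPAN-P2RY11 only by -1.003 (SE 0.23, adjusted p = 0.00217). Lower shared sets in wild-type cells were also those of RPL36A, a large-subunit ribosomal protein gene (-1.27), MINOS1, of the inner membrane organising complex of mitochondria (-1.25), NEDD8, the ubiquitin-like modifier of cullins (-1.24), TMEM189 (-0.31) and RPS10 (-0.26), each with its read-through name. In mutant cells the first 3 were lower as well, while TMEM189 and RPS10 did not pass.

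Of the 30 groups with 3 or more symbols, 5 had a lower shared set in wild-type cells. The 30 groups held 224 shared sgRNAs in all, many listed under only 2 of the symbols of their group. ATP5J2, a subunit of ATP synthase, PTCD1, a mitochondrial RNA-binding protein, and their read-through name formed a group with 12 shared sgRNAs. These need not all be listed under all 3 symbols. The set stood at 214 and 212 CPM in wild-type day 0 and 98.7 and 97.1 in wild-type day 9. In mutant cells it stood at 209 and 214 at day 0 and 107 and 103 at day 9. The replicates lay close together and day 9 was lower throughout, by 1.12 (SE 0.06) in wild-type and 1.01 (SE 0.06) in mutant cells. PMF1, of the kinetochore's MIS12 complex, with BGLAP and their read-through name fell by 0.85 (SE 0.07) in wild-type cells. The set of HAUS7, of the spindle's augmin complex, with BGN and TREX2 fell by 0.59 (SE 0.09). Only 4 of its 10 sgRNAs had a negative change in wild-type cells. Sums of a gene's primary-promoter sgRNAs, shared ones included, changed there by -1.02 for HAUS7, -0.96 for TREX2 and 0.08 for BGN. The groups C2orf15/LIPT1/MRPL30 and RBM14/RBM14-RBM4/RBM4 fell by 0.31 and 0.26. In the former, such sums changed by -1.02 for C2orf15, -1.37 for MRPL30 and -0.05 for LIPT1. All 5 groups were also lower in mutant cells, where NDUFA13/TSSK6/YJEFN3 passed too, at -0.21 (SE 0.07), a call lost without any 1 of 6 libraries. The wild-type call of the MRPL30 group was lost without wild-type day 0 replicate 1, and the mutant call of the RBM14 group without mutant day 0 replicate 2.

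Because a shared sgRNA stands under several genes, the gene-level sums of primary-promoter sgRNAs were computed with and without it. A shared sgRNA listed outside a gene's primary promoter entered neither sum of that gene. For genes with no other shared sgRNA, such as OAZ3, DNASE1L1, ENO3 and PPP1R13L, both sums are therefore the same. With the shared sgRNAs counted, 113 of the 741 genes were lower in wild-type cells (15.2%) and 6 higher, where 8.69% and 0.862% of all gene sums were. The same reads can enter several of the 741 genes, as for NOP10 and NUTM1, both at -1.74. Some falls are therefore counted more than once in either line, and these shares are not of independent genes. Of these 113, 48 had no own set, so their call came from shared sgRNAs or from these and 1 own sgRNA. The other 65 had an own set, which was lower in 45 and not in 20, and 9 genes were called only without their shared sgRNAs. In mutant cells 108 genes were lower with the shared sgRNAs and 8 higher, where 8.53% and 0.725% of all gene sums were; 46 had no own set, 49 kept the call, 13 did not, and 9 were called only without them. None of the 741 differed between the lines by edgeR (48 at an unadjusted p under 0.05), where 0.0159% of all gene sums were lower and 0% higher in mutant cells.

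Among the 20 genes whose wild-type call needed the shared sgRNAs, RAD9B went from -1.39 (SE 0.14) with them to -0.16 (SE 0.25) without. PPAN went from -1.54 (SE 0.12) to -0.35 (SE 0.22), CEP63 from -1.07 (SE 0.13) to -0.52 (SE 0.19), and ANAPC10 from -0.46 (SE 0.13) to -0.22 (SE 0.14). Both DNAJC17 and ZFYVE19 lost their call, from -0.50 to -0.12 and from -0.62 to -0.07. In the other direction COX15 went from -0.04 (SE 0.11) to -1.22 (SE 0.39). Others called only without shared sgRNAs were C10orf111, from -0.30 to -1.24, ISG20L2, from -0.39 to -1.05, and CENPN, a centromere protein, from -0.25 to -0.77. The own sets hold fewer guides, and a call that misses the threshold does not show that the gene had no effect.

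Gene lists by function, matched on symbols, were described by counts alone, beside the 8.61% of all sums lower in wild-type cells and the 8.5% in mutant cells. A group counted in a list when any of its genes matched, and some groups counted in several lists. The listed gene need not be the depleted one: the own sets of MRPL49, RAD9B and POLR3K were lower in neither line. The counts therefore describe groups and do not assign the fall to the listed function. The mitochondrial ribosome had members in 7 groups, and the shared set was lower in 5 in wild-type and 6 in mutant cells, with a median change of -0.62 and -0.73. In both lines these were the groups of MRPL12, MRPL9, MRPL49, MRPS6 and MRPL30, and in mutant cells also that of MRPL32. MRPL32 shared its guide with the proteasome subunit gene PSMA2, and the change was -0.73 (SE 0.22, edgeR adjusted p = 0.022), a call lost without any 1 of 5 libraries. The respiratory chain and its assembly factors stood in 11 groups, 2 lower in wild-type and 3 in mutant cells. Of 5 groups with a cytosolic ribosomal protein listed by RPL or RPS names, 2 were lower in wild-type cells, those of RPL36A and RPS10, and 1, that of RPL36A, in mutant cells. The RPS10 call was lost without any 1 of 5 libraries and with wild-type libraries alone.

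Ribosome assembly and RNA polymerase I genes stood in 8 groups, of which the shared sets of NOP10 and NIP7 were lower in both lines. Cell cycle, anaphase-promoting complex and kinetochore genes stood in 8, of which the groups of ANAPC10 and ANAPC13 were. DNA repair genes stood in 6 groups, with the shared set lower in 3 in wild-type cells, among them those with RAD9B and SMC1A, and in 4 in mutant cells, among them that with RAD17. The spliceosome gave 2 of 5 in each line and RNA polymerases and Mediator 2 of 4 in wild-type and 3 of 4 in mutant cells. Of 3 groups with an aminoacyl-tRNA synthetase, that of SARS2 was lower in both lines. The translation factor list held ABCE1 alone, the proteasome list PSMA2 alone and the chaperonin list the HSPA1A/HSPA1B group alone, which did not pass. None of 5 histone groups and none of 3 groups of mitochondrial chaperones and import passed in either line, and of 12 groups with a ZNF gene 1 was lower, in mutant cells. No group held a gene of the DNA replication list.

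Rises were few and small. In wild-type cells the shared set was higher for TNFSF12, a cytokine gene, with its read-through name, from 87.9 and 84.3 to 105 and 108 CPM, a change of 0.31 (SE 0.08, edgeR adjusted p = 0.00415). It was also higher for the chemokine genes CCL14/CCL15, at 0.27 (SE 0.09, edgeR adjusted p = 0.04). That call was lost when any 1 of 6 libraries was left out, with control scaling, and with wild-type libraries alone. In mutant cells the shared set was higher for RXRB/SLC39A7 at 0.46 (SE 0.14), BCL2L2/BCL2L2-PABPN1 at 0.25 (SE 0.08), C4A/C4B/C4B_2 at 0.20 (SE 0.05) and HBA1/HBA2 at 0.17 (SE 0.05). These mutant calls were lost without any 1 of 5 libraries for RXRB/SLC39A7, of 4 for BCL2L2 and of 3 each for C4A and HBA1/HBA2. The first 2 were also lost with control scaling, and the TNFSF12 call was lost without wild-type day 0 replicate 2. The 12 sgRNAs of HBA1 and HBA2, the alpha-globin genes, stood at 332 and 328 CPM in mutant day 0 and 379 and 365 in day 9, and at 343 and 337 in wild-type day 0 and 326 and 369 in day 9. Day 9 lay above day 0 without overlap in mutant cells and overlapped it in wild-type cells, and the difference between lines, 0.14 (SE 0.07), did not pass the test.

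No shared set differed between the lines by edgeR's quasi-likelihood test with Benjamini-Hochberg adjustment, where 0.0158% of all sums were lower and 0% higher in mutant cells. At an unadjusted p under 0.05 there were 24 of 355 shared sets (6.76%), where 5.61% of all sums were, and 89 of 1364 shared sgRNAs (6.52%), where 5.10% of all sgRNAs were; DESeq2 called 2 shared sets and 2 shared sgRNAs. Each line was compared with its own day 0. Day 0 and day 9 moved in opposite directions in the lines, with no overlap in either, in 18 of 355 shared sets (5.07%), where 4.19% of all sums did.

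The shared set with the lowest p for the difference was that of DPY30 and MEMO1. DPY30 is a core subunit of the complexes that methylate histone H3 at lysine 4, and MEMO1 is an adaptor of cell migration signalling. Their 5 sgRNAs, with no own sgRNA for either gene, summed to 69.4 and 72.0 CPM in wild-type day 0, 40.2 and 46.2 in wild-type day 9, 71.5 and 68.1 in mutant day 0 and 23.3 and 27.1 in mutant day 9. The day 0 libraries of both lines overlapped, and at day 9 both mutant libraries lay below both wild-type ones. The set changed by -0.71 (SE 0.11) in wild-type and -1.46 (SE 0.11) in mutant cells, both past the test. The difference was -0.75 (SE 0.15), with an edgeR adjusted p of 0.0769 over all sums. DESeq2 gave an adjusted p of 0.000145, and over all alternatives the adjusted p ran from 0.000145 to 1.00. All 5 sgRNAs were more negative in mutant cells, from -2.55 to -0.55 against -1.24 to -0.20 in wild-type.

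The 5 shared sets with the largest differences by size had 1 or 2 sgRNAs each, and none passed. C14orf178/SNW1 differed by -2.91 (SE 1.44) and OSBPL10/ZNF860 by -1.92 (SE 0.81). CEPT1/DRAM2 differed by 1.51 (SE 2.87), ABCE1/ANAPC10 by -1.25 (SE 0.75) and ARIH2/ARIH2OS by 1.07 (SE 0.71). The edgeR adjusted p ran from 0.885 for OSBPL10/ZNF860 to 0.984 for CEPT1/DRAM2. At SNW1 the mutant day 9 libraries held 4 and 5 reads, and at CEPT1/DRAM2 the 8 libraries held between 4 and 92 reads.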

How the data were processed

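The authors deposited raw read counts per sgRNA in 1 table of 8 columns, with no normalization, per the file headers; the submitters' processing notes name hg38, and no source used here names the aligner or counter. Genomic DNA of the sgRNA cassette was amplified by PCR, per the labels' protocols. Of 209070 rows, 103686 were at 0 in all libraries.

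Each shared sgRNA entered once per strand and position. In the gene-level sums with shared sgRNAs, it entered every gene that listed it at the primary promoter. sgRNAs with a mean count of at least 20 were tested singly, and as sums per shared set (1 or more sgRNAs), own set (2 or more) or gene (3 or more), with edgeR 4.0.16 in R 4.3.3: TMM scaling, 1 model of the 4 groups over all 8 libraries, glmQLFit and glmQLFTest, with Benjamini-Hochberg adjustment at 0.05 over each whole table. The standard error is the log2 change divided by the square root of F, and CPM uses TMM-scaled library sizes. Alternatives were DESeq2 1.42.0, RLE and control-sgRNA scaling, other count minimums, a replicate block, 1 line at a time, a log2 change beyond 1, all promoters pooled, more sgRNAs per set, rows as deposited and each library left out. The fitting was tested on simulated data.

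Members and lists were chosen with earlier results of these data known. Values were printed by a rule: the largest falls and rises of the shared set in each line, the largest gaps between own sets, the largest differences between lines, up to 2 groups per gene list, groups of 3 or more symbols, and the groups with the most shared sgRNAs. Other groups named were chosen after their values were seen. Symbols were matched to RefSeq (GRCh38.p14), 650 as current, 70 as synonyms and 21 not at all; coordinates in sgRNA names were used only for distances. Guide sequences were not used here, and 1 gene pair is not reported here. Depth limits precision as the standard errors show, for counting error and replicate spread only.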

Additional observations from a re-analysis of the deposited data

Results flagged for a closer look

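In 3 of the 73 groups whose values were chosen for printing, the shared set moved in opposite directions in the lines, with no overlap between day 0 and day 9 in either line; over all 355 groups this was so in 18 (5.07%), and over all sums tested in 4.19%. The single sgRNA of OSBPL10/ZNF860 stood at 2.75 and 3.34 CPM in wild-type day 0 and 3.89 and 4.67 in day 9, and at 2.79 and 2.78 in mutant day 0 and 0.854 and 1.15 in day 9. Its change in mutant minus wild-type cells was -1.92 (SE 0.81, edgeR adjusted p = 0.885), and the 2 mutant day 9 libraries held 30 and 106 reads. The shared set of TICAM2, TMED7 and their read-through name differed by 0.29 (edgeR adjusted p = 0.869), where DESeq2 gave an adjusted p of 0.0273. That of ZNF177, ZNF559 and their read-through name differed by 0.33 (edgeR adjusted p = 0.885). No cause of these 3 differences was tested.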

How the results depend on the processing

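Of 14 counts (called shared sgRNAs and shared sets, pairs by own sets, and genes with and without shared sgRNAs), all 14 stayed within 1.5 times their value with RLE scaling, control scaling, a count minimum of 100, no minimum and the replicate block. With the replicate block, 47 shared sets were called in wild-type and 50 in mutant cells, as without it, and it changed no call of a group printed here. The correlation of same-numbered deviations ran from -0.01 to 0.04, the highest between mutant day 0 and mutant day 9. Deviations from 2 replicates also hold counting noise, so these values do not settle whether the replicate numbers pair the samples. DESeq2 called 71 shared sets in wild-type cells, against 47, and between the lines 2 shared sgRNAs and 2 shared sets, against 0. With rows as deposited, each shared sgRNA counting once per symbol, 256 shared rows were called in wild-type and 294 in mutant cells, against 123 and 140 sgRNAs. Asking also for a log2 change beyond 1 left 24 and 23 shared sets, 1 and 3 pairs with both own sets lower and 20 and 13 with 1, in wild-type and mutant cells.

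Leaving out each library in turn gave these ranges, wild-type first: shared sgRNAs 92 to 131 and 101 to 155; shared sets 36 to 52 and 39 to 58; both own sets lower 3 to 8 and 5 to 10; 1 own set lower 25 to 36 and 18 to 32; genes with shared sgRNAs 87 to 120 and 83 to 117; genes by own sgRNAs 39 to 60 and 38 to 63, the 38 without mutant day 0 replicate 1. Between the lines 0 shared sgRNAs and 0 to 1 shared sets were called, the 1 being DPY30/MEMO1, without wild-type day 9 replicate 1 (adjusted p = 0.00617) or mutant day 9 replicate 2 (0.0492). Of 913 values for the printed groups with a called shared set, 855 kept their direction and call, 58 lost the call and 0 reversed; the causes were not tested.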

Other observations

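A shared strand and position did not always mean 1 guide. The sgRNA names give no chromosome, so an equal coordinate need not be 1 genomic site. At 17 positions under 2 or more symbols the counts differed between the symbols, so these were not members. The widest gap in change was at the coordinate listed under GLE1, an mRNA export factor, and POTEI. The GLE1 sgRNA went from 3.03 and 3.45 CPM to 0.0863 and 0.350 in wild-type cells, a change of -3.87 (SE 0.70, edgeR adjusted p = 0.000367). The POTEI sgRNA went from 5.60 and 3.88 to 2.03 and 2.43 CPM, with a change of -1.09 (SE 0.41, adjusted p = 0.175). The reverse was more frequent: 1051 sgRNAs had counts identical in all 8 libraries to those of an sgRNA at another position, 63 of them members. Whether these are 1 guide listed at several positions was not tested, and each position entered the tests separately.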
